A study of Saccharomyces cerevisiae with 100 samples.

Results

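The genes described here are the Saccharomyces cerevisiae genes in which a single-nucleotide variant (SNV) put a new stop codon into the reading frame in at least 1 MMS-resistant rad53∆ sml1∆ suppressor strain. They were chosen from the deposited table of the suppressors by 1 rule: every gene with an SNV annotated as stop gained, leaving out YIL108W, NMD2 (YHR077C), SIR4 (YDR227W) and RPH1 (YER169W). The rule found 47 genes of the 51 with such an SNV, of 1524 genes with any coding SNV in the table and of 1632 genes overlapping an SNV of any kind. Over the table, 3.35% of the genes with a coding SNV had a stop-gained SNV, and 2.59% of the 2006 distinct coding SNVs made one.

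Genomic DNA of 95 suppressors and of their control strain, YJT75, was sequenced as 1 library per strain. All of these strains are W303 derivatives with the genotype MATa sml1Δ::URA3 rad53Δ::LEU2, and each suppressor is 1 isolate taken from plates with methyl methanesulfonate (MMS). The value measured is the allele frequency: of the reads of a library that cover a position, the share with the alternative base. There are no replicate libraries and the depth at each SNV is unknown, so single allele frequencies carry no interval. The study gives a median coverage over all samples and a minimum count of reads with the alternative base, but not the depth at each SNV. An SNV counted as carried by a suppressor where its allele frequency was at least 0.40, the minimum of the deposited table, and what each SNV does to growth in MMS was not measured in these data.

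A nonsense SNV turns a codon for an amino acid into TAA, TAG or TGA, so that the ribosome ends the protein at that point. What is left of the protein depends on where the stop falls, and messages with an early stop are often destroyed by nonsense-mediated mRNA decay (NMD). MMS alkylates DNA and stalls replication forks, and Rad53 is the checkpoint kinase that keeps such forks stable. Loss of Sml1, an inhibitor of ribonucleotide reductase, lets cells live without Rad53, although they stay very sensitive to MMS.

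Each stop is written as a substitution, with the reference base, the position (from 1 at the left end of the chromosome in the sacCer2 assembly), and the alternative base. All positions are on the forward strand, and 29 of the genes are read from that strand and 18 from the other. PRP6 (YBR055C) gives an example: G344690C on chromosome II is a C-to-G change on the coding strand, which can make a stop only from the serine codon TCA or the tyrosine codon TAC. The position of each stop within its protein was not computed, because no genome or protein sequence of sacCer2 was used here.

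Every one of the 47 genes had exactly 1 stop-gained SNV, and each of these SNVs was carried by a single suppressor. All 51 genes together had 52 distinct stops, so a gene left out by the rule had more than 1. The share of all coding SNVs carried by a single suppressor is not given here, so this is not a trait shown to be particular to the stops. All 47 were listed at 0 in YJT75. SNVs at 0.1 or above in this control had been dropped by the authors, so low values there are partly set by that filter. The share of all SNVs in the table that were at 0 in YJT75 is not given here, so this too is not shown to be particular to the stops. The 47 SNVs lay on 14 of the 16 chromosomes, with 9 on XII, 7 on XVI, 5 on VIII and none on I or X. They fell into 38 of the 95 suppressors: 31 suppressors carried 1 of them, 6 carried 2, and SUP61 carried 4.

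SUP119, the carrier of the FLC1 stop, shared most of its SNVs with SUP118. The pair had 19 SNVs that no other suppressor carried. SUP119 carried 6 SNVs that did not count as carried in SUP118, among them the stop in FLC1 and A510063G in the kinase gene SCH9 at 0.957. In SUP118 these 6 were not at 0 but between 0.0536 and 0.107. Whether the 2 strains are separate isolates was not tested, and without SUP119 there were 37 suppressors with a stop in these genes.

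Allele frequencies of the 47 stops ranged from 0.456 to 1.0 with a median of 0.997. Of them, 23 were at 1.0 and 34 at 0.99 or above, so in most of these strains nearly every read carried the stop. On the chromosomes other than XII the range over 38 stops was 0.643 to 1.0 with a median of 1.0, and 1 of the 38 (2.63%) was under 0.7. On chromosome XII, 8 of 9 stops (88.9%) were under 0.7, from 0.456 to 0.568 with a median of 0.532. Missense SNVs, counted once in each suppressor that carried them, divided in the same way. On chromosome XII 89.9% of them were under 0.7, and on the other chromosomes 4.75%, so the stops did not stand apart from the table. The 8 suppressors with the 8 low stops had a median allele frequency between 0.462 and 0.526 over all their SNVs on chromosome XII and between 0.954 and 1.0 elsewhere. The exception on chromosome XII was PPR1 in SUP65 at 1.0, and that strain's median on chromosome XII was also 1.0. These medians include the stop itself. On chromosome XII they rest on few SNVs, between 2 (SUP113) and 8 (SUP83 and SUP94) for the low stops and 3 in SUP65. What sets the values near 0.5 on this chromosome was not tested.

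**Figure D1:**
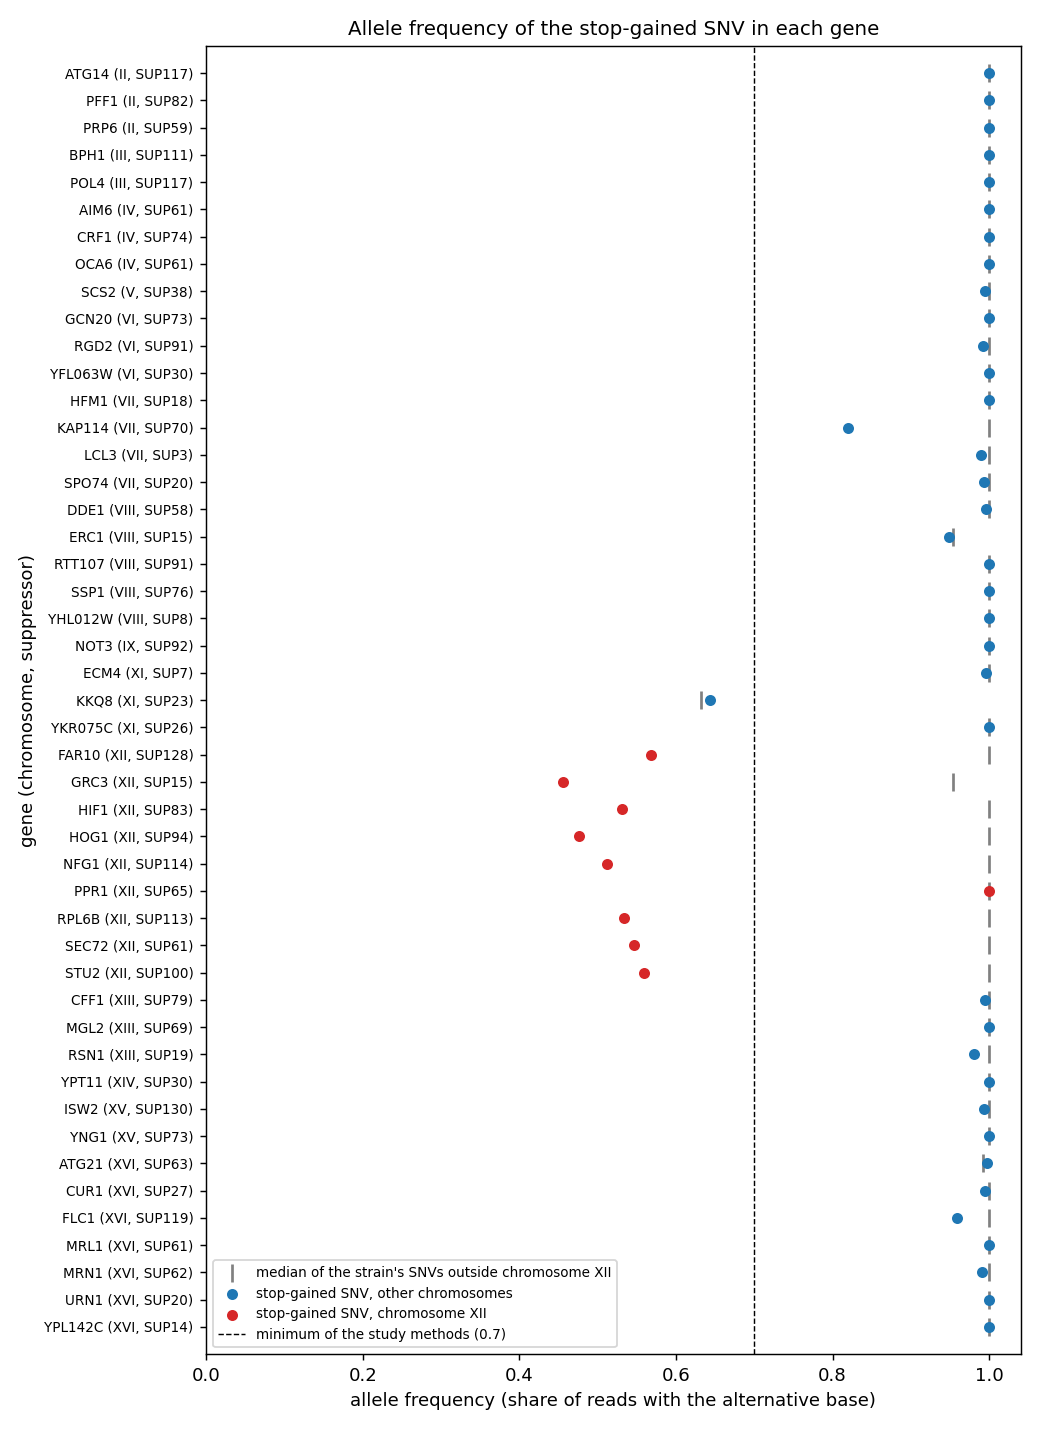
Allele frequency (share of reads with the alternative base, horizontal axis) of the stop-gained SNV in each of the 47 genes, with its chromosome and suppressor; grey bars are the median of that suppressor's SNVs outside chromosome XII and the dashed line is the 0.7 minimum of the study's methods. The 8 red points near 0.5 are on chromosome XII, and the 2 blue points below 0.9 are KAP114 at 0.820 and KKQ8 at 0.643.

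The deposited table keeps only SNVs that reached 0.40 in at least 1 suppressor. A stop that stayed lower in every strain could not be seen, so the gap between the readings given next is set in part by this filter. The lowest stop that counted as carried was GRC3 in SUP15 at 0.456, and the highest below the minimum was the FLC1 stop in SUP118 at 0.107. After that came a reading of 0.0338 for the YPL142C stop in a suppressor other than its carrier.

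The largest role group, with 11 genes, acts in membranes, transport and autophagy. Its members were spread over 8 chromosomes, and every stop but those of SEC72 and KAP114 was at 0.949 or above. ATG14 (YBR128C), a subunit of the phosphatidylinositol 3-kinase complex that starts autophagy, carried A493931T on chromosome II at 1.0 in SUP117. ATG21 (YPL100W), a phosphoinositide-binding protein of the cytoplasm-to-vacuole pathway, carried T362651A on chromosome XVI at 0.997 in SUP63. Both belong to the autophagy machinery, and they were found in different suppressors. PFF1 (YBR074W), a protease of the vacuolar membrane, carried T388152G on chromosome II at 1.0 in SUP82. BPH1 (YCR032W), a BEACH-domain protein related to mammalian proteins of lysosomal trafficking, carried T180363A on chromosome III at 1.0 in SUP111. MRL1 (YPR079W) resembles the mannose 6-phosphate receptors that sort enzymes to the lysosome in mammals, and its stop, C699324A on chromosome XVI, was at 1.0 in SUP61.

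The other members of this group act at the endoplasmic reticulum (ER), the plasma membrane and in nuclear import. SCS2 (YER120W), a VAP-family protein that ties the ER to the plasma membrane, carried C401798A on chromosome V at 0.994 in SUP38. FLC1 (YPL221W), which takes part in import of FAD into the ER, carried C133945T on chromosome XVI at 0.959 in SUP119. In SEC72 (YLR292C), part of the Sec63 complex for translocation into the ER, the stop C720088T on chromosome XII was at 0.546 in SUP61. It was the only stop of the group on chromosome XII and the only one near 0.5. ERC1 (YHR032W), a multidrug and toxin extrusion (MATE) transporter, carried C173551A on chromosome VIII at 0.949 in SUP15, whose SNVs outside chromosome XII had a median of 0.954. RSN1 (YMR266W), a membrane protein of the TMEM63 family, carried C798730T on chromosome XIII at 0.980 in SUP19. KAP114 (YGL241W), an importin that carries TATA-binding protein and histones into the nucleus, carried C48012G on chromosome VII at 0.820 in SUP70, below that strain's median of 1.0. The KAP114 stop was low in a strain whose other SNVs mostly were not.

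Signalling proteins and transcription factors made up 10 genes, of which 4 were on chromosome XII. HOG1 (YLR113W), the MAP kinase of the osmotic stress response, carried C372907A at 0.476 in SUP94. FAR10 (YLR238W), which acts in the arrest caused by pheromone, carried C615100A at 0.568 in SUP128. NFG1 (YLR042C), a negative regulator of filamentous growth, carried G230100T at 0.511 in SUP114. The suppressors of these 3 genes had a median of 1.0 for SNVs outside chromosome XII, so the low values went with the chromosome and not with the whole library. The fourth, PPR1 (YLR014C), the zinc-cluster activator of the pyrimidine pathway genes, carried G172428A at 1.0.

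Outside chromosome XII the signalling group held a putative kinase, regulators of transcription and translation and a small GTPase. GCN20 (YFR009W), an ABC-type ATPase needed for activation of the Gcn2 kinase in amino acid starvation, carried G163439T on chromosome VI at 1.0 in SUP73. CRF1 (YDR223W), a corepressor of ribosomal protein genes, carried C912309T on chromosome IV at 1.0 in SUP74. RGD2 (YFL047W) carried T41524A on chromosome VI at 0.992 in SUP91. These 3 stops were at or close to 1.0, like the strain medians. In OCA6 (YDR067C), a protein resembling tyrosine phosphatases, G583171T on chromosome IV was at 1.0 in SUP61. In YPT11 (YNL304W), a Rab-type GTPase for inheritance of mitochondria and Golgi by the bud, C61458T on chromosome XIV was at 1.0 in SUP30. The putative kinase KKQ8 (YKL168C) carried C131652A on chromosome XI at 0.643 in SUP23. In SUP23 the median over all SNVs outside chromosome XII was 0.632, close to the KKQ8 value.

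Members that act in RNA biology and translation numbered 6. Of these, PRP6, a splicing factor of the U4/U6-U5 tri-snRNP and an essential gene in standard strains, carried its stop at 1.0 in SUP59. URN1 (YPR152C), a WW-domain protein associated with splicing, carried A833267C on chromosome XVI at 1.0 in SUP20. NOT3 (YIL038C), a subunit of the Ccr4-Not complex that shortens poly(A) tails, carried G282412C on chromosome IX at 1.0 in SUP92. Both splicing genes thus had the stop in all reads, although in different strains. MRN1 (YPL184C), an RNA-binding protein, carried G196871T on chromosome XVI at 0.991 in SUP62. RPL6B (YLR448W), 1 of the paired genes for a protein of the large ribosomal subunit, carried C1029606T on chromosome XII at 0.534 in SUP113. GRC3 (YLL035W), a polynucleotide kinase of ribosomal RNA processing and also essential, carried A70412T on chromosome XII at 0.456 in SUP15. Reads of RPL6B can be shared with its paralog RPL6A, and whether the alignment divided them was not tested.

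STU2 (YLR045C), the microtubule polymerase of the XMAP215 family, is the third member known to be essential in standard strains, a set chosen after the values were seen. Its stop G236791C on chromosome XII was at 0.559 in SUP100. The essential genes thus included a stop in about 1 of 2 reads, as for GRC3 and STU2, and a stop in every read, as for PRP6. Both of the former are on chromosome XII and PRP6 is on chromosome II.

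Genes for DNA repair and meiosis or sporulation gave 5 members. RTT107 (YHR154W), a BRCT-domain scaffold that is phosphorylated by Mec1 and needed for recovery from MMS, carried C404520T on chromosome VIII at 1.0 in SUP91. POL4 (YCR014C), a DNA polymerase that fills gaps in end joining, carried T140847A on chromosome III at 1.0 in SUP117. HFM1 (YGL251C), a meiotic DNA helicase that acts on crossovers, carried G28374C on chromosome VII at 1.0 in SUP18. RTT107 and POL4 are repair factors of mitotic cells, whereas HFM1 and the next 2 genes are known for roles in meiosis and spore formation. SPO74 (YGL170C), a component of the meiotic spindle pole body, carried T185259A on chromosome VII at 0.993 in SUP20. SSP1 (YHR184W), which shapes the prospore membrane, carried C473710T on chromosome VIII at 1.0 in SUP76.

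Chromatin factors gave 3 members. ISW2 (YOR304W), the ATPase of an ISWI-type remodelling complex, carried G886981T on chromosome XV at 0.993 in SUP130. YNG1 (YOR064C), the PHD-finger subunit of the NuA3 histone acetyltransferase, carried T446110A on chromosome XV at 1.0 in SUP73. HIF1 (YLL022C), a histone chaperone that works with the Hat1-Hat2 acetyltransferase, carried C99657A on chromosome XII at 0.531 in SUP83. None of these 3 genes had an SNV of another kind in any suppressor, which was so for 30 of the 47 genes in all.

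Metabolism and protein quality control also gave 3 members. ECM4 (YKR076W), an omega-class glutathione transferase, carried T582169A on chromosome XI at 0.996 in SUP7. MGL2 (YMR210W), a monoacylglycerol lipase, carried C688744A on chromosome XIII at 1.0 in SUP69. CUR1 (YPR158W), which sorts misfolded proteins to the nucleus, carried T844003A on chromosome XVI at 0.994 in SUP27.

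For the remaining 8 members no role is given. AIM6 (YDL237W) carried A30975T on chromosome IV at 1.0 in SUP61. LCL3 (YGL085W) carried G350244A on chromosome VII at 0.9901 in SUP3, and DDE1 (YHR045W) carried G196140A on chromosome VIII at 0.996 in SUP58. CFF1 (YML079W) carried G110649T on chromosome XIII at 0.995 in SUP79. All 4 of these had nearly all reads with the stop. YHL012W (G79934T, chromosome VIII, SUP8), YKR075C (C579909A, chromosome XI, SUP26), YFL063W (C5478A, chromosome VI, SUP30) and YPL142C (G282977T, chromosome XVI, SUP14) were each at 1.0. The last 2 have no entry in the R64 gene table and are given as the deposited table names them. Whether these 2 encode a protein was not tested.

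The base change that makes a stop is limited by the genetic code. On the coding strand, 8 of the 12 kinds of change can turn a sense codon into a stop, and the other 4 (A to C, A to G, G to C and T to C) cannot. The 4 that cannot held 748 of the 2006 coding SNVs, or 37.3%. Among the 1258 coding SNVs of the 8 kinds that can, 52 were stops, counting all 51 genes, or 4.13%.

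C to A was the most frequent change among the 47 stops, with 11 (23.4%), beside 10.3% of all coding SNVs. It makes a stop from the serine codons TCA and TCG, the tyrosine codon TAC and the cysteine codon TGC. The 11 genes were ERC1, FAR10, HOG1, MGL2, MRL1, MRN1, NFG1, OCA6, SCS2, YFL063W and YPL142C. C to T followed with 8 stops (17%), beside 9.62% of coding SNVs, and it can act on the glutamine codons CAA and CAG and on the arginine codon CGA. G to T gave 7 (14.9%), beside 7.93%, from the glutamate codons GAA and GAG or the glycine codon GGA.

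The other kinds of change were less frequent among the stops. T to A gave 6 stops, A to T and C to G gave 5 each, and T to G gave 2, in PFF1 and URN1. G to A gave 3, in DDE1, LCL3 and SEC72, and in these the codon can only have been TGG for tryptophan. Within each kind, the share of coding SNVs that were stops was taken with the genes left out by the rule included. It ran from 2.08% for G to A to 5.66% for G to T, where 9 of 159 were stops. Without the genes left out, G to T had 7 stops, while C to A (5.34%) had 11 of 206 either way.

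With both strands merged, a change of C:G to A:T accounted for 18 of the 47 stops (38.3%), beside 18.2% of all coding SNVs and 29.0% of those of a kind that can make a stop. A stop arose from a G or C in 34 of 47 genes (72.3%), beside 49.3% of all coding SNVs and 70.4% of those of a kind that can. Set against the changes that can make a stop, the share from G or C was therefore close to that of the table. How often each codon occurs in the reading frames was not computed.

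**Figure D2:**
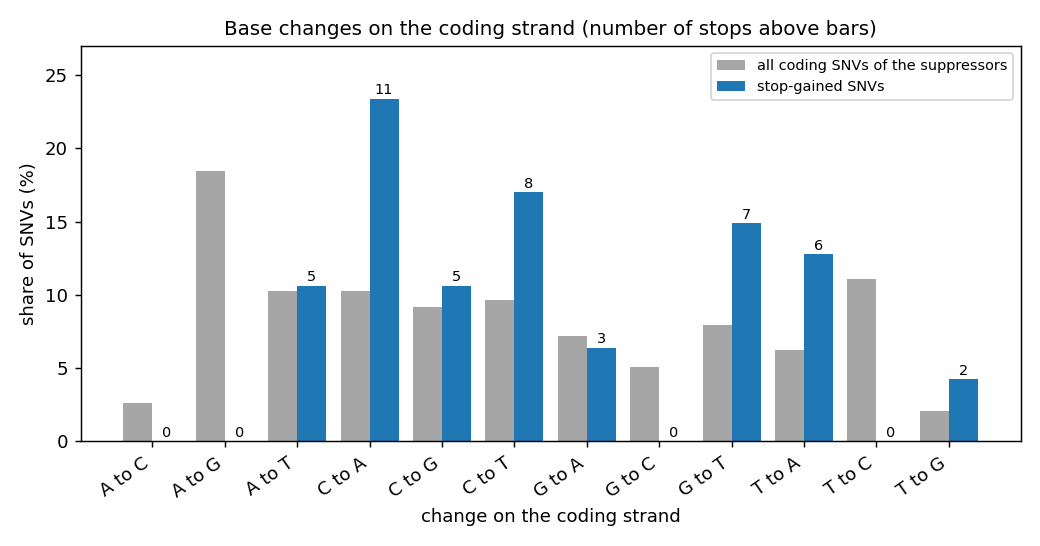
Share of SNVs (%, vertical axis) by base change on the coding strand (horizontal axis), for the 47 stop-gained SNVs (blue, number above each bar) and for all 2006 coding SNVs of the suppressors (grey). C to A is the tallest blue bar with 11 stops, and the 4 changes that cannot make a stop have no blue bar.

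Other SNVs in the same genes came next. In the 95 suppressors, 30 of the 47 genes had no coding SNV besides the stop and 17 had at least 1. A missense SNV was found in 16 of the 47 genes (34.0%). Of the 478 genes with a synonymous SNV, a group chosen by another kind of change, 30.8% also had a missense SNV, so the share among the truncated genes was near this background. A synonymous SNV was found in 4 of the 47 (8.51%), beside 12.7% of the 1156 genes with a missense SNV. Coding length, on which the number of SNVs in a gene depends, was not used here.

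The 16 genes held 19 missense SNVs, of which 17 were in a suppressor other than the carrier of the stop. By role, a missense SNV was found in 6 of the 11 membrane and trafficking genes and 4 of the 6 for RNA and translation. It was found in 2 of the 5 repair and meiosis genes, 2 of the 10 for signalling and 1 of the 3 for metabolism. The 1 microtubule gene had a missense SNV too, while the 3 chromatin genes and the 8 with no role given had none. Distances below are counted along the chromosome in the direction of the gene, introns included. A missense SNV past the stop shows that the reading frame continues at least that far beyond it, and 13 of the 19 lay past the stop.

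BPH1 had a pair of missense SNVs, A182483G at 1.0 in SUP117 and T182586C at 0.992 in SUP18, 2120 and 2223 bases past the stop. RSN1 had T800275C at 1.0 in SUP74, 1545 bases past it. FLC1 had C135230G at 0.993 in SUP103, 1285 bases past it. In these 3 genes the stop thus has at least that much of the frame behind it. ERC1 had C173574G at 1.0 in SUP7, only 23 bases past the stop, and C174705G at 0.992 in SUP9, 1154 bases past it. URN1 had A832193G at 0.522 in SUP124, 1074 bases past the stop. ECM4 had T582982A at 1.0 in SUP94, 813 bases past it, and MRL1 had A699918G at 1.0 in SUP13, 594 bases past it. Each of these changes was in a suppressor without the gene's stop, so the 2 alterations of a gene were in separate strains. SPO74 had A185094G at 0.980 in SUP15, 165 bases past its stop, and MRN1 had T196834A at 1.0 in SUP10, 37 bases past it.

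RPL6B was changed in 4 suppressors. Its missense SNVs were G1029516A at 0.487 in SUP1, 90 bases before the stop, and A1029682T at 0.518 in SUP52, 76 bases past it, and a synonymous SNV, C1029296G, was at 0.513 in SUP57. With the stop at 0.534 in SUP113, all 4 values lay near 0.5, as most SNVs on chromosome XII did.

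Before the stop lay missense SNVs of HFM1 (A30516T, 0.9495 in SUP15, 2142 bases), PFF1 (C387629A, 1.0 in SUP102, 523 bases), GRC3 (G70110A, 0.548 in SUP100, 302 bases) and PPR1 (T172628C, 0.495 in SUP39, 200 bases). PPR1 was at 0.495 in SUP39 and at 1.0 in SUP65, so this gene on chromosome XII was seen at both levels. SUP100 thus carried the missense SNV in GRC3 together with the stop in STU2, both near 0.5 and both in genes essential in standard strains.

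In 2 genes the stop and a missense SNV were in the same suppressor. SUP73 carried C163435A in GCN20 at 1.0, 4 bases before the stop and in another codon. SUP100 carried T236252G in STU2 at 0.488, 539 bases past the stop, which was at 0.559. The values do not show whether the STU2 changes are on the same or on different copies of the chromosome. The deposited annotation treats each SNV singly, so a missense SNV past a stop in the same strain is listed as missense.

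The synonymous SNVs were C31149A in HFM1 (1.0, SUP59), C349816T in LCL3 (1.0, SUP3), C799593T in RSN1 (0.402, SUP23) and the one in RPL6B. LCL3 was the only case in which the synonymous SNV and the stop shared a suppressor, 428 bases apart.

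**Figure D3:**
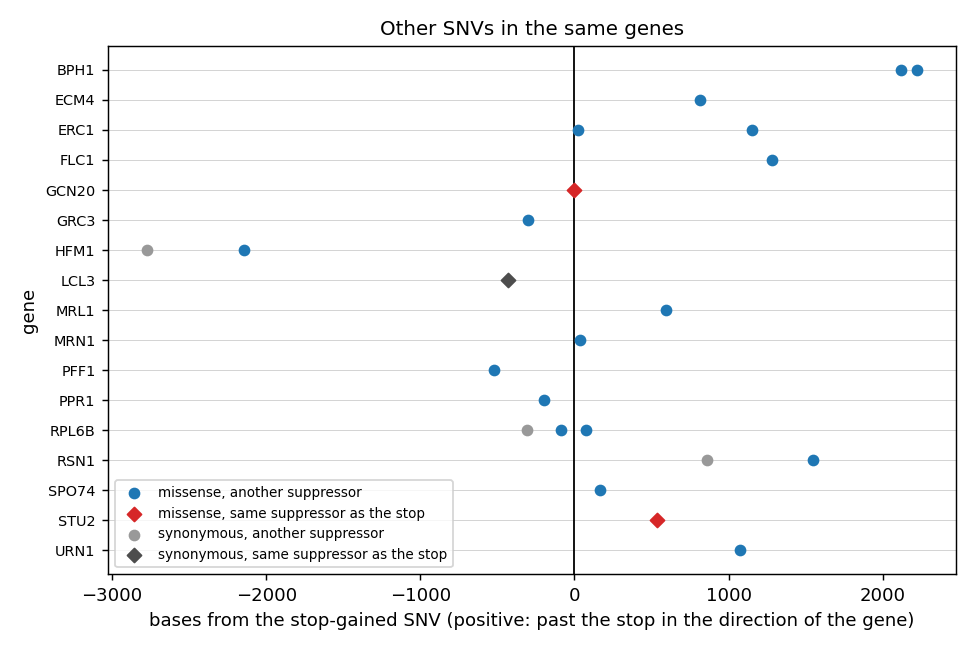
Position of each missense and synonymous SNV in the 17 genes that have one, in bases from the gene's stop-gained SNV along the chromosome (horizontal axis, positive past the stop in the direction of the gene); diamonds are SNVs in the suppressor that carries the stop. Of the 19 missense SNVs 13 lie to the right of the line, the farthest in BPH1 at 2223 bases, and the 2 red diamonds are GCN20 and STU2.

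Next, the strains were described. A suppressor with a stop in 1 of these genes carried between 5 and 32 other nonsilent SNVs (missense, nonsense, start lost or stop lost), with a median of 16.5, and all 95 suppressors carried between 3 and 32 with a median of 16. The fewest were 5, in SUP65 with the PPR1 stop and SUP70 with the KAP114 stop. There were 8 in SUP58 (DDE1), SUP130 (ISW2) and SUP38 (SCS2). The most were 32 in SUP3 (LCL3), 29 in SUP7 (ECM4) and 27 in SUP62 (MRN1). A stop was therefore always 1 of several nonsilent changes in its strain.

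Over the 95 suppressors the number of these stops was set against the number of other nonsilent SNVs, and neither coefficient passed the test at the minimum allele frequency of 0.40. Pearson's r was 0.0674 (permutation test with 100000 draws, two-sided, p = 0.516) and Spearman's rho was 0.108 (permutation p = 0.297). Without the 2 suppressors farthest from the median, SUP45 and SUP3, r was 0.0693. At a minimum of 0.9, r was 0.178 (permutation p = 0.0876) and rho was 0.219 (permutation p = 0.0329, not adjusted), so the rank correlation passed at that setting. A missense SNV in GUD1, shared by 49 suppressors, divides the strains, and GUD1 is named here only for that. Among the 49, r was 0.184 (permutation p = 0.207) and rho 0.183 (p = 0.207), and r was 0.126 without 2 suppressors. Among the other 46, r was −0.0333 (permutation p = 0.828) and rho 0.0316 (p = 0.834), and r was −0.100 without 2. Adjusted by Benjamini-Hochberg over these 3 settings, the permutation p for r was 0.774 for all suppressors, 0.621 with the GUD1 SNV and 0.828 without it, and for rho it was 0.445, 0.445 and 0.834. Stops were found on both sides, 21 in 18 of the 49 suppressors with that SNV and 26 in 20 of the 46 without it.

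**Figure D4:**
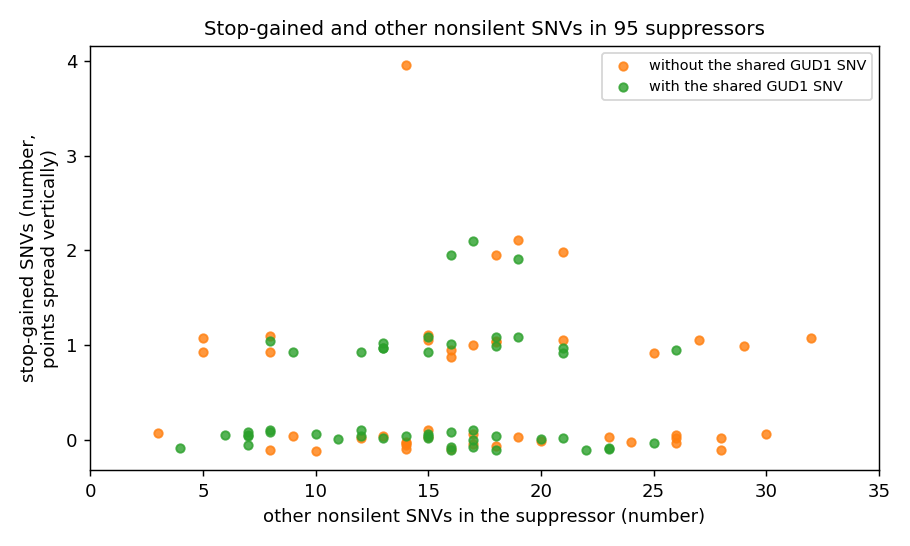
Number of stop-gained SNVs in the 47 genes (vertical axis, points spread slightly for legibility) against the number of other nonsilent SNVs (horizontal axis) in each of 95 suppressors, coloured by the shared GUD1 SNV. SUP61 stands alone with 4 stops and 14 other nonsilent SNVs, and strains with 1 stop span 5 to 32.

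SUP61 carried the stops in AIM6, MRL1 and OCA6 at 1.0 and the stop in SEC72, on chromosome XII, at 0.546. It had 14 other nonsilent SNVs, fewer than the median of all suppressors, and 1 of them was C171568T in IRA2, a GTPase-activating protein of Ras, at 1.0. The pairs in the other 6 suppressors joined genes of different roles in most cases. SUP117 carried the stops in ATG14 and POL4, SUP20 those in SPO74 and URN1, and SUP30 those in YFL063W and YPT11. In SUP73 the stops were in GCN20 and YNG1, in SUP91 they were in RGD2 and RTT107, and in SUP15 they were in ERC1 and GRC3. In the first 5 pairs both stops were at 0.992 or above, whereas in SUP15 ERC1 was at 0.949 and GRC3, on chromosome XII, at 0.456.

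Of the genes on 7 lists of pathways, 220 genes in all, 5 were among the 47 (2.27%), beside 45 of the 6021 protein-coding genes of the R64 table (0.747%). Counting the 4 genes left out by the rule, 8 of the 220 had a stop-gained SNV (3.64%), beside 0.814% of the 6021. The 5 were NOT3 (mRNA decay), RTT107 (checkpoint and replication), HFM1 (DNA repair), HOG1 (Ras and stress signalling) and LCL3. HFM1 and LCL3 are on the list of 32 genes that the study tested by deletion, which was drawn up from genes mutated in these suppressors. Of these deletions, the study reports that those of NMD2, UPF3, XRN1, SIR1, SIR4 and ESC1 suppressed the MMS sensitivity of rad53∆ cells. HFM1 and LCL3 are not among the genes for which it reports suppression. The other lists were also chosen with earlier results of these data known. The shares of the 220 genes are therefore not independent of these SNVs and do not measure enrichment. Of the 25 genes for Rpd3L and histone demethylation and of the 24 for silencing, 0 were among the 47 truncated genes, with RPH1 and SIR4 left out by the rule. NMD2, on the mRNA decay list, was left out in the same way.

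Nonsilent SNVs in listed genes were also found beside the stops, with shares on both sides of those of all suppressors. A gene tested by deletion was hit in 17 of the 38 suppressors with a truncated gene (44.7%), beside 40% of all 95. For checkpoint and replication genes the figures were 8 of 38 (21.1%) beside 17.9%, for DNA repair 7 of 38 (18.4%) beside 17.9%, and for Ras and stress signalling 11 of 38 (28.9%) beside 25.3%. For Rpd3L and histone demethylation they were 3 of 38 (7.89%) beside 7.37%. For mRNA decay they were 4 of 38 (10.5%) beside 16.8%, and for silencing 3 of 38 (7.89%) beside 13.7%. The 38 are part of the 95, and no test was made between them.

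Among the strains with a truncated gene, SUP7 carried the ECM4 stop together with the RPH1 stop A523712T at 0.994. RPH1 encodes a histone demethylase of the JmjC type, and the study reports that its deletion partially suppresses the MMS sensitivity of rad53∆ cells. By the study's text, loss of the demethylase activity alone was not sufficient for this. SUP7 also carried missense SNVs in REV3, the catalytic subunit of the translesion polymerase zeta (C233148T, 1.0), and in HIR3, of the histone regulatory complex (T695216C, 0.993). SUP69, with the MGL2 stop, carried A795504G in the Rpd3L subunit SAP30 at 1.0, and SUP79, with the CFF1 stop, carried G188435T in the Set3 complex subunit SNT1 at 1.0. These 3 were the strains with a change on the Rpd3L and histone demethylation list.

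The mRNA decay list gave 4 of the strains. SUP91, with the RTT107 and RGD2 stops, carried G404407C in DCP2, the decapping enzyme, at 1.0. SUP74, with the CRF1 stop, carried A294203G in MOT2, a ubiquitin ligase of Ccr4-Not, at 1.0. SUP79 carried T176908C and G177944C in the 5′ exonuclease gene XRN1, both at 1.0, and SUP119, with the FLC1 stop, carried C179270T in XRN1 at 1.0. By the study's text, deletion of XRN1 suppresses the MMS sensitivity of rad53∆ cells, and MOT2 is not among the genes reported to do so. What these missense SNVs do was not measured. A stop in 1 pathway could thus share a strain with a missense change in another.

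Checkpoint and repair genes were changed alongside the stops as missense SNVs. SUP30, with the YPT11 and YFL063W stops, carried G508347T in the checkpoint kinase gene MEC1 and G263173T in PSY2, a subunit of the phosphatase that acts on Rad53, both at 1.0. SUP8 (YHL012W) and SUP76 (SSP1) carried different SNVs in TEL1, the other checkpoint kinase of this family, A57591C at 1.0 and C52194A at 0.991. SUP23, with the KKQ8 stop at 0.643, carried A179409G in DDC1, of the checkpoint clamp, at 1.0. SUP26 (YKR075C) and SUP92 (NOT3) carried different SNVs in the helicase gene SRS2, C260069A and A259584G, both at 1.0.

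SUP65, with the PPR1 stop and only 5 other nonsilent SNVs, carried T443253A in MMS4, a subunit of a structure-specific nuclease, and C591927G in ARP8, of the INO80 remodeller, both at 1.0. SUP130, with the ISW2 stop and 8 others, carried G874800C in MMS1, of a ubiquitin ligase for replication repair, at 1.0. In SUP117, with the ATG14 and POL4 stops, NTG1, a glycosylase of base excision repair, carried 2 SNVs, G127877C and A127881C, both at 1.0, and YKU70, an end-joining factor like POL4, carried C838997T at 0.613. IRA1 C520421T, a missense SNV found in 9 suppressors, was present in SUP7, SUP8, SUP18, SUP19 and SUP20 at 0.994 or above. SNVs that several suppressors share need not be separate events.

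In a few strains another SNV lay close to the stop, chosen for mention after the values were seen. In SUP73 the YNG1 stop was 623 bases from a missense SNV in the neighbouring ribosomal protein gene RPL3, C445487A, at 1.0. In SUP79 a pair of missense SNVs in DUS1, a dihydrouridine synthase for tRNA, were 1043 and 1584 bases from the CFF1 stop. SUP62 carried C195459T in YPL185W 1412 bases from the MRN1 stop. With the 4 bases in GCN20 these were the closest pairs between a stop and another SNV of its strain that lay outside LCL3 and STU2.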

How the data were processed

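Genomic DNA of yeast strains was sequenced as paired-end reads, 1 library per strain. The authors aligned the reads to sacCer2 with Novoalign 2.07.14, removed duplicates from the longer reads with Picard 1.81 (both named in the submitters' notes), counted bases with deepSNV, called SNVs jointly over the suppressors and YJT75, dropped SNVs at 0.1 or above in the control, and annotated 1 gene and 1 effect per SNV with snpEff. The deposited values are allele frequencies, a fraction of reads between 0 and 1, in which 10 is written for 1.0 and the highest other value is 0.998. The authors kept SNVs at 0.40 or above in a suppressor and, by the study's methods, also set a minimum count of reads for the allele. Their columns of maximum allele frequency and number of strains were not used.

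An SNV was counted once per position and alternative base. The shares of missense SNVs under 0.7 are an exception, with an SNV counted once in each suppressor that carried it. Coding strand followed the last letter of the systematic name. Of 47 genes, 45 matched the R64 RefSeq gene table, which gave names only, and 43 had a symbol. No sequence is printed, and SNVs are in sacCer2 coordinates. Every gene was named once. Genes were described further if they were on a list, shared a strain with another stop, had a missense SNV, or had the lowest or highest allele frequency. The genes and lists were chosen with earlier results of these data known, and the role groups were assigned after the genes were seen.

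The correlation over suppressors used two-sided permutation tests with 100000 draws in Python 3.11.15 with numpy 2.4.6, pandas 2.3.3 and scipy 1.17.1 (plots with matplotlib 3.10.9), tested on simulated data. By the study's text each suppressor is an isolate of its own. The p-values give how often values shuffled over these strains reached a coefficient of at least the same size. The permutation treats the strains as separate. Groups of them share SNVs, such as GUD1 in 49, IRA1 in 9, and those of SUP118 and SUP119, so they may not be independent. Alternatives were a minimum of 0.7 or 0.9, only SNVs at 0 in the control, chromosome XII left out, SUP119 left out, synonymous in place of other nonsilent SNVs, strains with or without the GUD1 SNV, stops in all genes, and only SNVs or missense SNVs found in 1 suppressor.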

Additional observations from a re-analysis of the deposited data

Results flagged for a closer look

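A signal outside the main measurement was found in PPR1. In a separate experiment YMS6, an exo1∆ rad53∆ strain by the study's methods, was compared with its control YGDP939 (sml1Δ::URA3 rad53Δ::LEU2 exo1Δ::HIS3), and YMS6 carried the missense SNV C172326G in PPR1 at 1.0 while the control was at 0. It lies past the PPR1 stop of SUP65 in the direction of the gene. The third experiment, on S64Bα, had 0 SNVs in the 47 genes. Whether the PPR1 change matters in YMS6 was not tested.

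The FLC1 stop of SUP119 was also read in SUP118, at 0.107, under the minimum for a carried SNV and above the control, at 0. All 6 SNVs that SUP119 carried and SUP118 did not were above 0.05 in SUP118, with a median of 0.0828 there and a median of 0.971 in SUP119. In the other direction, the 1 SNV that SUP118 carried and SUP119 did not was at 0.0224 in SUP119. What gives SUP118 these low values was not tested.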

How the results depend on the processing

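Of 51 values recomputed under the alternatives, 49 were counted as the same, 1 as stronger and 1 as reversed. Most of the 51 are counts, shares or medians, which have no test, so the label says little about them. The correlations were labelled by Pearson's r and its p-value, and rho was not used for the label. The correlation of stops with other nonsilent SNVs was 0.0674 and changed sign among the suppressors without the GUD1 SNV, to −0.0333 (permutation p = 0.828). With synonymous SNVs counted in place of other nonsilent SNVs, r was 0.228 (permutation p = 0.0259), while rho was 0.0661 (p = 0.527) and r without SUP15 and SUP20 was 0.124, so that value rests on these 2 suppressors. At a minimum of 0.9, r was 0.178 (permutation p = 0.0876) and rho 0.219 (p = 0.0329). At a minimum of 0.7, 38 genes, 31 suppressors and 11 genes with a missense SNV were left, and at 0.9, 37 genes in 30 suppressors. Without chromosome XII, 38 stops in 31 suppressors and 12 genes with a missense SNV remained. Keeping only SNVs at 0 in the control left all 47 genes. No paired analysis was possible because the suppressors and the control do not share replicate numbers and each strain has 1 library. Depth per SNV is unknown, which limits how closely values such as 0.643 and 0.820 can be read.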
